A study of Danio rerio with 4 samples.

Results

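Most subunits of the mitochondrial respiratory chain and of ATP synthase are encoded in the nucleus, and 94 of the 28320 nuclear genes listed in the kidney libraries belonged to this group by their symbols. Members were every gene whose symbol began with *ndufa*, *ndufb*, *ndufc*, *ndufs*, *ndufv*, *uqcr* or *atp5*, or with *cox* followed by a digit of 4 to 8, and no measured value entered this choice. They comprised 8 core and 30 accessory subunits of complex I, 8 genes of complex III, 24 of complex IV, 5 of the F1 head and 11 of the Fo and stalk parts of ATP synthase, and *atp5s*, a coupling factor related to it. The 30 accessory entries include *ndufa9b*, which RefSeq lists as a pseudogene. The symbol rule also took in 7 *ndufaf* genes, which encode assembly factors of complex I. *ndufa4* and its relatives were counted with complex IV, to which mammalian NDUFA4 is assigned.

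Complexes I, III and IV pass electrons from NADH to oxygen and pump protons across the inner mitochondrial membrane, and ATP synthase (complex V) uses the returning protons to make ATP. Kidney tubule epithelial cells are rich in mitochondria, which supply the sodium pump and the reabsorption of filtered solutes. Several small complex IV subunits exist as variants, and in mammals COX6A2, COX7A1 and COX8B are known from heart and skeletal muscle and COX4I2 from lung and from cells at low oxygen.

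The kidneys came from zebrafish of the AB strain at 4 days post injury (dpi), after intraperitoneal injection of 20 μl of gentamicin at 2.7 μg/μl per fish, an aminoglycoside antibiotic that damages kidney tubules. All 4 libraries, replicates 1 to 4, had this genotype and treatment and none was uninjured, so every comparison here is between cell types of injured kidneys. The study used 12 fish, and how they were divided among the libraries is not stated. P-values therefore measure only the spread between libraries, which may be technical. BD Rhapsody capture was used, which places single cells in microwells with barcoded beads and tags each molecule of mRNA with a unique molecular identifier (UMI).

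The libraries held 9048, 9831, 6308 and 5821 cells (31008 in all) and between 59350367 and 87759842 UMIs. The median cell had between 4358 and 9953.5 UMIs and was deeper in libraries 3 and 4. The members took between 11565.8 and 13916.6 of every 1000000 nuclear UMIs, and 90 of the 94 were listed in all 4 libraries. The 13 protein genes of the mitochondrial genome were listed in libraries 3 and 4 only, so levels are given as UMIs per 1000000 UMIs of nuclear genes (CPM), and values within libraries 1 and 2 and within libraries 3 and 4 are given beside pooled ones. In all, 168 barcodes occurred in more than 1 library, carried by 336 cells.

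Cells were clustered without the members among the variable genes, and 13 classes were named from markers ("X-like"). The class of proximal tubule epithelial cells (PTEC-like) held 484 cells and that of distal tubule epithelial cells (DTEC-like) 826. Their marker scores (mean log2 ratio to all other cells) were 6.355 and 6.198, with multiciliated markers next at 0.6889 and 1.916. Kidney markers followed the study's own marker lists, which come from these same cells, and general knowledge, so the names are not independent of these data. Among the 10 leading genes of the PTEC-like cluster, *slc22a2* and *ucp1* stood beside *vtg1*, *tfa*, *apoa1b*, *apoa2* and *apoc1*, which are known from liver. Clustering the tubule cells again gave 78 multiciliated-like cells, 42 of them from the DTEC-like and 36 from the PTEC-like cluster, a class formed after the data had been seen. Their score for multiciliated markers was 1.903 against the other tubule cells only, with none of these markers among their 10 leading genes. The markers *foxj1a* and *foxj1b* had 574.7 and 248.2 CPM in them, against at most 215.3 and 20.84 in the other sub-clusters. In the fit of the 13 classes and in the class levels, these cells also remain in the DTEC-like and PTEC-like sums. The second clustering also gave sub-clusters led by globin genes (104 cells), by cycling and macrophage genes (66), by neutrophil genes (44) and by liver genes (20). The main tubule counts and medians are also given without these sub-clusters. Another 8 clusters stayed unnamed. The largest held 3361 shallow cells (median 715 UMIs). It scored best for erythroid markers (1.429), with none of them among its 10 leading genes. The next held 2465 cells and scored best for macrophage markers (0.5691). Results for erythroid-like and macrophage-like cells do not cover these clusters.

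The respiratory chain genes stood highest in the tubule. Their summed level was 50786, 44086, 36519 and 35641 CPM in DTEC-like cells of libraries 1 to 4. In PTEC-like cells it was 33898, 39394, 36626 and 36552. Multiciliated-like cells followed with 20189, 18146, 16026 and 11611, and RSC-like cells (renal stem cells of the study) with 14037, 16691, 14337 and 13511. The tubule classes thus overlapped with each other but with none of these, and no library of the other named classes exceeded the lowest PTEC-like value.

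The means were 41758 ± 7113 in DTEC-like, 36617 ± 2244 in PTEC-like, 16493 ± 3672 in multiciliated-like and 14644 ± 1406 in RSC-like cells (SD, n = 4 libraries each). The other classes lay close together. Natural killer-like cells had 10861 ± 446, thrombocyte-like cells 10615 ± 1898, neutrophil-like cells 9760 ± 740, macrophage-like cells 9635 ± 873 and kidney mucin-secreting cell-like (KMSC-like) cells 9568 ± 2914. B cell-like cells had 9015 ± 1848, renal interstitial cell-like (RIC-like) cells 8983 ± 2651, erythroid-like cells 8422 ± 804, T cell-like cells 8173 ± 420 and vascular endothelial cell-like (VEC-like) cells 7684 ± 2460. Neighbouring means in this order differed by less than the larger SD of the pair. Against the median of the other classes, taken library by library, the sum was 4.41 ± 0.259 times as high in DTEC-like and 3.93 ± 0.589 times as high in PTEC-like cells (SD, n = 4). Of the unnamed clusters, the highest mean was 17920 ± 1870 (n = 4), so none reached the tubule classes.

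**Figure D1:**
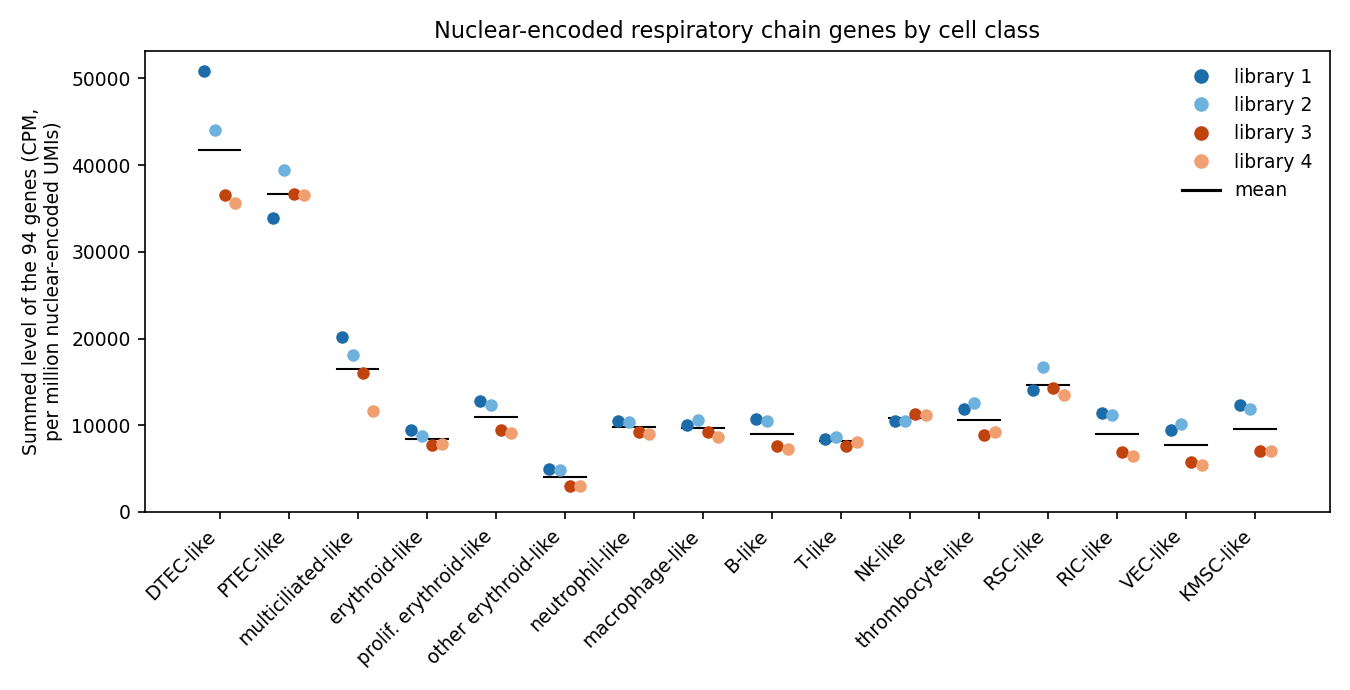
Summed level of the 94 members in each cell class, in CPM, with a point per library and a bar at the mean. DTEC-like cells (35641 to 50786) and PTEC-like cells (33898 to 39394) lie above every other class. Multiciliated-like cells (11611 to 20189) have the next highest mean and overlap with RSC-like cells.

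The difference reached nearly every member. In PTEC-like cells 85 of the 89 members tested were higher than the mean of the 12 other classes and 1 was lower at an adjusted p under 0.05 (edgeR's quasi-likelihood test, Benjamini-Hochberg over 17102 genes), where 27.5% and 15.7% of all genes were called higher and lower (43.2% in either direction). In DTEC-like cells 87 of 89 were higher and none was lower, the fold changes of the others being positive, against 27.4% and 12.9% of all genes (40.3% in either direction). The median log2 fold change of the members was 1.77 in PTEC-like cells and 1.74 in DTEC-like cells, and that of all genes tested was −0.02 and 0.04. Both comparisons share the classes they are set against, and each contains the other tubule class among them. The members not called in PTEC-like cells were *ndufa4* (0.76), *ndufaf1* (0.80) and *ndufaf6* (0.59), and in DTEC-like cells *ndufaf4* (0.9956) and *ndufaf7* (0.61). All of these are assembly factors of complex I except *ndufa4*.

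Within libraries 1 and 2 the counts higher were 85 for PTEC-like and 86 for DTEC-like cells, and within libraries 3 and 4 they were 83 and 83. Of all genes, 4684 and 4505 of 16105 were higher within libraries 1 and 2. Within libraries 3 and 4 these were 4639 and 5162 of 17964. Leaving out 1 library gave 83 to 85 and 82 to 86 members. Without the sub-clusters led by genes of other cells, 85 members were higher in PTEC-like and 87 in DTEC-like cells, with medians of 1.93 and 1.82, and the summed level was 4.485 and 4.643 times the median of the other classes.

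All respiratory complexes took part. In PTEC-like cells all 7 tested core subunits of complex I, which carry its flavin and iron-sulfur clusters, were higher with a median log2 fold change of 1.58, and so were all 29 tested accessory subunits (1.76). All 8 genes of complex III were higher (2.005), 19 of 21 of complex IV (1.88), all 5 of the F1 head (1.93) and all 11 of the Fo and stalk parts (1.73). DTEC-like cells gave the same counts for complexes I, III and V, with medians of 1.86, 1.73, 1.87, 1.69 and 1.74 in that order, and 21 of 21 for complex IV (1.77). The assembly factors had medians of 1.004 in PTEC-like and 0.95 in DTEC-like cells, with 5 of 7 higher in each, and *atp5s* alone was at 1.22 and 0.72.

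**Figure D2:**
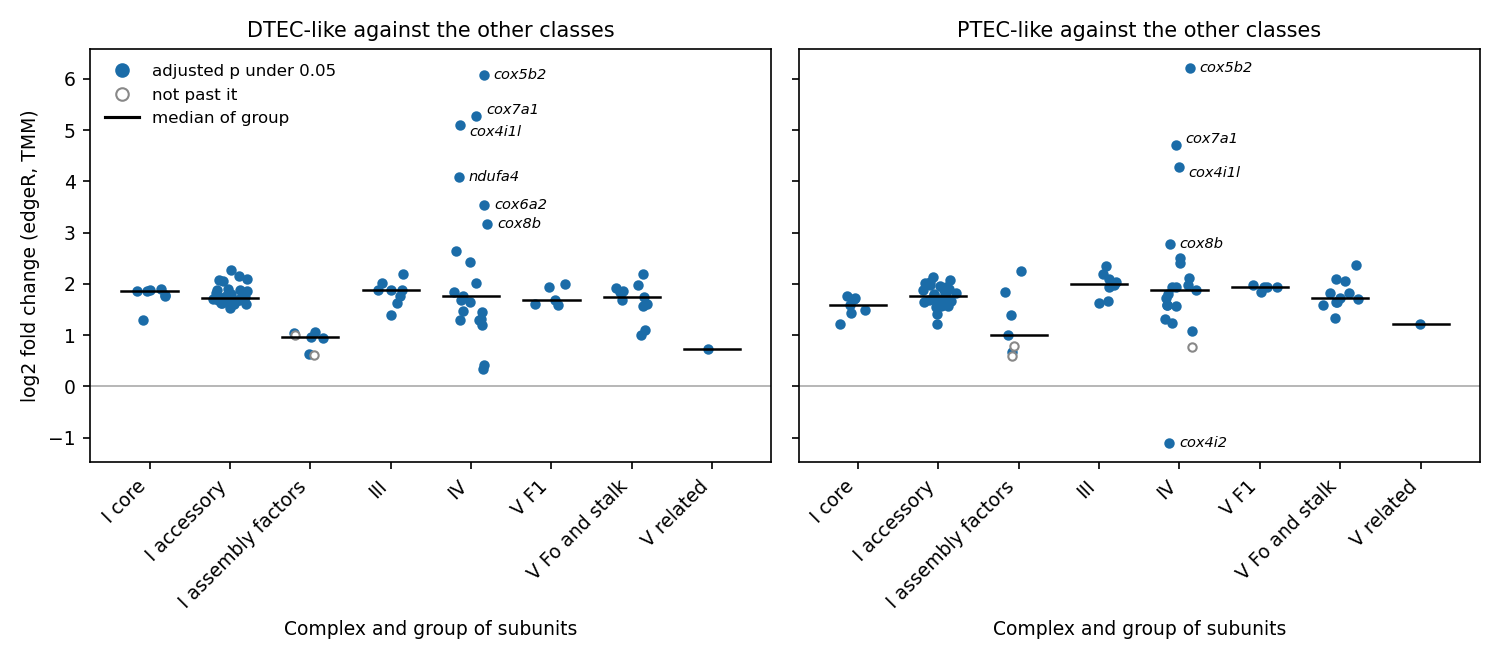
Log2 fold change of each tested member in DTEC-like and PTEC-like cells against the mean of the 12 other classes, grouped by complex, with a filled point for each gene past the threshold, an open point for each other gene and a bar at the group's median. Most subunits lie near the medians of 1.74 and 1.77 over all members, while *cox5b2* (6.08 and 6.21), *cox7a1* (5.28 and 4.71) and *cox4i1l* (5.09 and 4.28) stand far above them.

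*atp5b*, the catalytic beta subunit of ATP synthase, serves as an example. It had 2791, 2219, 1558 and 1555 CPM in DTEC-like cells and 1766, 2061, 1614 and 1592 in PTEC-like cells of libraries 1 to 4. In neutrophil-like cells it had 451, 435, 396 and 374. Both tubule classes were above the neutrophil-like cells in every library. In DTEC-like cells the log2 fold change came to 1.95 (standard error 0.214, adjusted p = 1.22e-10), above the members' median of 1.74. *uqcrh*, the hinge protein of complex III, was at 765, 622, 617 and 593 in DTEC-like and at 563, 654, 1039 and 966 in PTEC-like cells, and averaged 117 ± 12.97 in neutrophil-like cells. Its log2 fold change in PTEC-like cells was 2.35 (standard error 0.151, adjusted p = 4.83e-18), above the complex III median of 2.005. *atp5g1*, which encodes the rotating c subunit, had 1312 ± 210 in DTEC-like and 1306 ± 140 in PTEC-like cells and between 134 and 411 in the other named classes.

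For 71 of the 89 members both tubule classes lay above all 11 other classes in every library, which held for 3.29% of the 17102 genes. PTEC-like cells alone lay above them for 76 members and DTEC-like cells for 76, against 7.62% and 8.05% of all genes. Among the 18 exceptions, *atp5s* was highest in erythroid-like cells (26.4 CPM), *cox4i2* in RIC-like cells (83.7) and *ndufaf6*, an assembly factor, in B cell-like cells (28.7). All other exceptions had their highest mean in PTEC-like or DTEC-like cells.

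The largest differences were in small complex IV subunits. *cox5b2*, a gene for the zinc-binding subunit 5B, had 542, 477, 408 and 352 CPM in DTEC-like cells. It had 360, 372, 551 and 476 in PTEC-like cells. Multiciliated-like cells followed with 98.4 ± 36.8 and erythroid-like cells with 44.4 ± 9.87, and the other classes averaged between 1.91 and 9.81. Its log2 fold change was 6.08 in DTEC-like (standard error 0.259, adjusted p = 1.77e-24) and 6.21 in PTEC-like cells (0.258, 4.15e-25). The other member for subunit 5B, *cox5b1*, had 46 UMIs over all libraries. Any gene for this subunit listed under another kind of symbol was not a member, so the level of the subunit as a whole was not measured.

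*cox7a1*, whose mammalian counterpart is the muscle variant of subunit 7A, had 609, 488, 451 and 445 CPM in DTEC-like cells and 285, 290, 265 and 392 in PTEC-like cells. Multiciliated-like cells had 46.1 ± 29.0 and all other classes averaged between 2.33 and 24.4. The tubule classes did not overlap with any of them. The fold change on the log2 scale was 5.28 in DTEC-like (standard error 0.150, adjusted p = 9.34e-31) and 4.71 in PTEC-like cells (0.156, 9.13e-29). Of the UMIs of *cox7a1*, *cox7a2a* and *cox7a2b* together, *cox7a1* took 55.5% ± 2.67 in DTEC-like cells, 35.6% ± 3.85 in PTEC-like cells and 4.71% ± 0.629 in neutrophil-like cells. A further gene, *cox7a3*, was not counted in these shares. These shares are not corrected for transcript length, and reads shared between such related genes cannot be told apart from the counts.

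At the level of cells, 59.6% of DTEC-like and 61.8% of PTEC-like cells had a *cox7a1* UMI, against 5.20% of neutrophil-like cells (exact 95% intervals 56.1 to 62.9, 57.3 to 66.1 and 4.75 to 5.68). Their median depths were 8274, 8564 and 6815 UMIs. Thinned to 2000 UMIs per cell, the *cox7a1* shares were 32.6%, 32.0% and 1.24%, leaving out 75, 49 and 390 shallower cells. For *cox5b2* the thinned shares were 32.4% in DTEC-like, 37.9% in PTEC-like and 0.481% in neutrophil-like cells (unthinned 59.1%, 64.9% and 1.88%). Intervals cover counting error only, and the share that free RNA alone would give was not measured.

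*cox4i1l*, a relative of the regulatory subunit gene *cox4i1*, and *cox8b*, a variant of subunit 8, differed between pairs of libraries as well as between cell types. *cox4i1l* had 297, 274, 743 and 792 CPM in DTEC-like cells of libraries 1 to 4. In PTEC-like cells it had 94.8, 105, 466 and 547. Neutrophil-like cells had 0.669, 0.316, 28.1 and 25.0. In each library the tubule classes were higher than neutrophil-like cells, and in each of these classes *cox4i1l* was higher in libraries 3 and 4. Neutrophil-like cells came from different clusters in these pairs of libraries, since 1 cluster held 1675 and 1921 of them in libraries 1 and 2 but 90 and 96 in libraries 3 and 4, and another held 10 and 8 against 1474 and 1399. The class sums therefore mix cluster and library for neutrophil-like levels that differ between the pairs, here and for *cox8b* and *ndufa4*. Levels within a cluster that all libraries share were not compared here. The log2 fold change of *cox4i1l* was 5.09 in DTEC-like (standard error 0.485, adjusted p = 1.90e-12) and 4.28 in PTEC-like cells (0.513, 1.22e-09). *cox8b* had 961 ± 205 in DTEC-like, 662 ± 124 in PTEC-like and 73.8 ± 70.8 in neutrophil-like cells, with 13.3, 11.6, 134 and 137 in libraries 1 to 4. The ubiquitous *cox4i1* averaged 1247 ± 243 and 1088 ± 108 in DTEC-like and PTEC-like cells and 508 ± 141 in neutrophil-like cells.

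**Figure D3:**
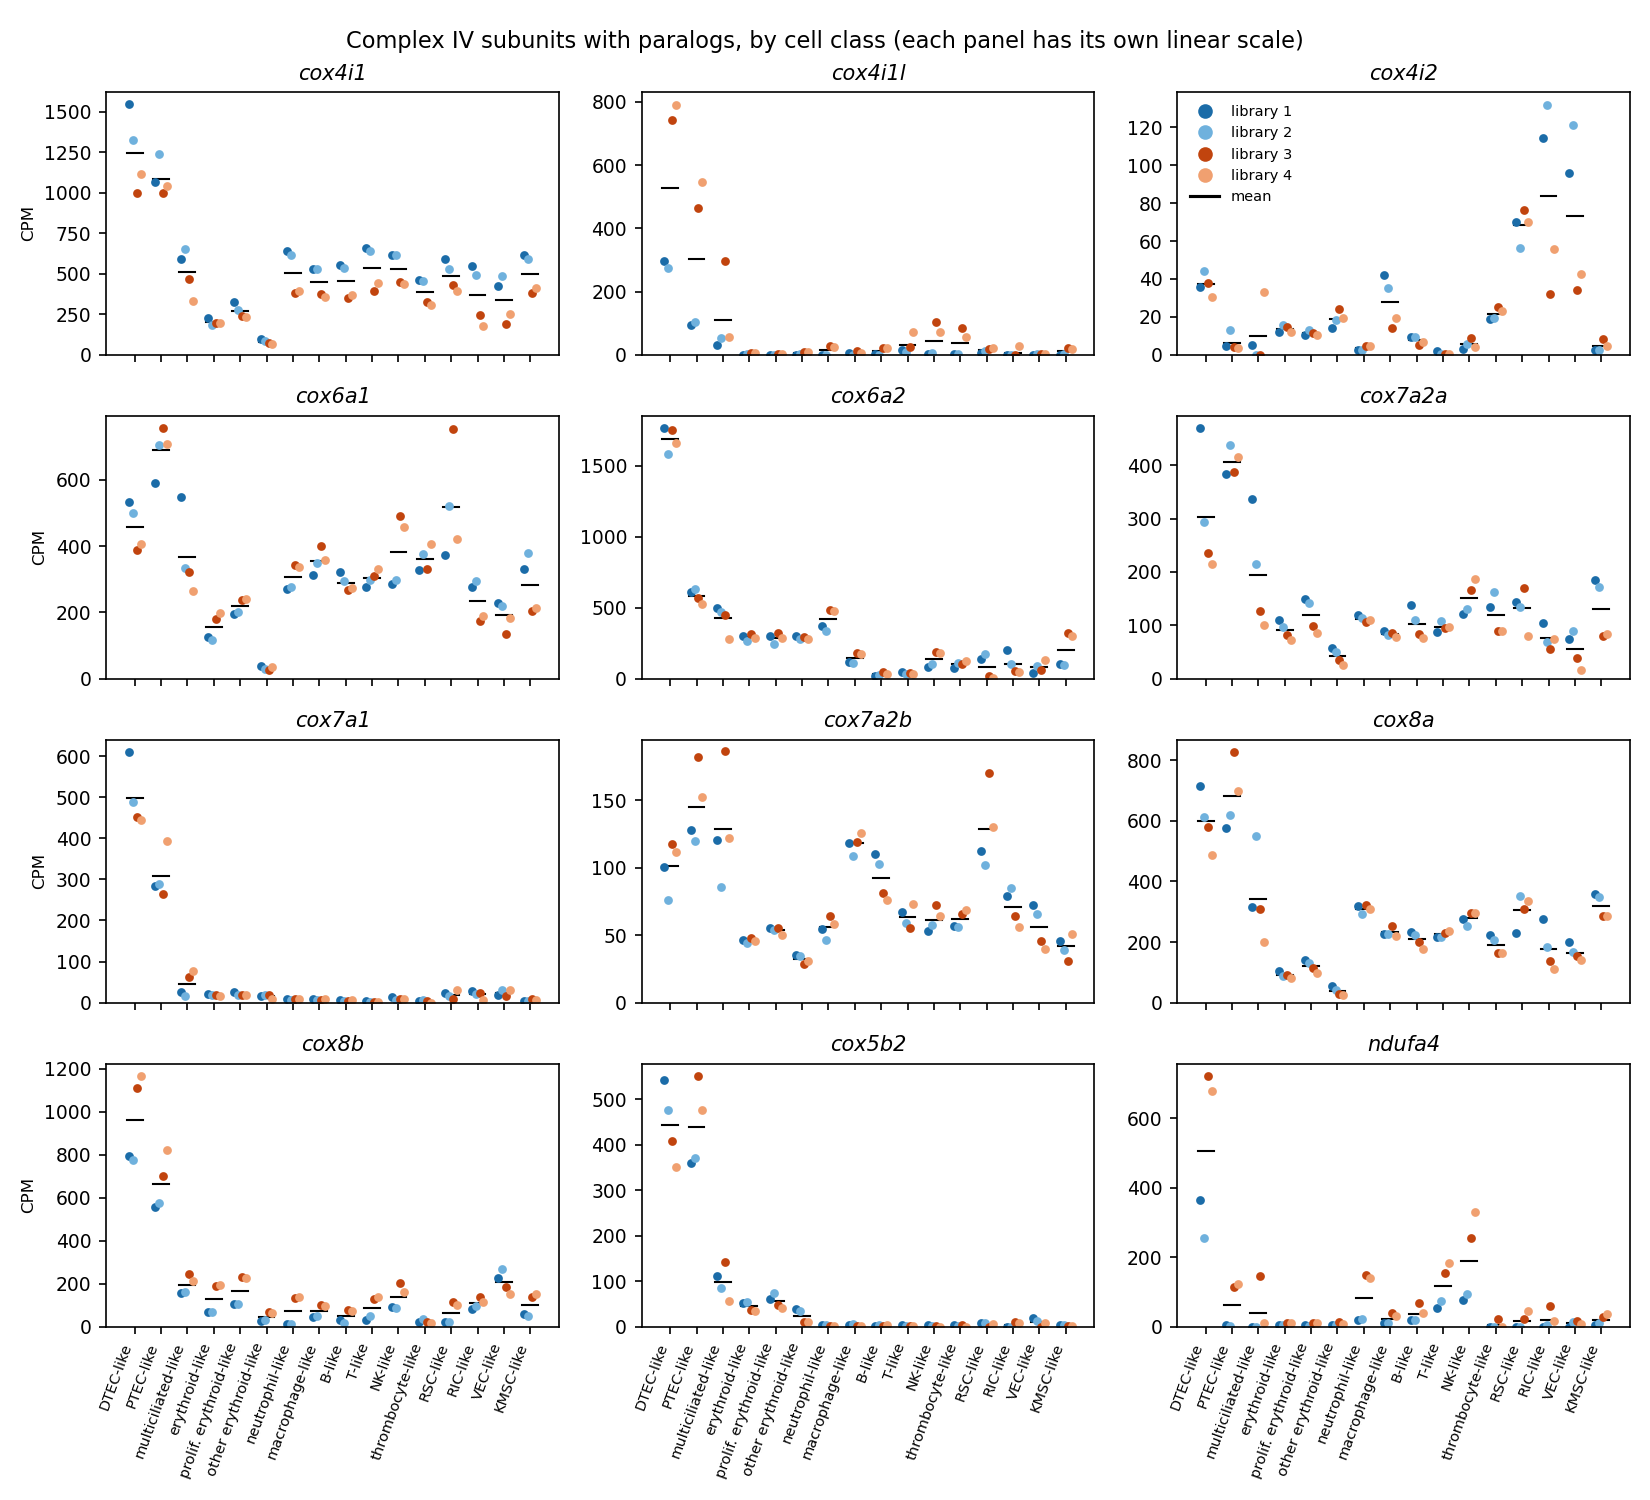
Levels of complex IV variant genes by cell class, in CPM on linear axes that differ between panels, with a point per library and a bar at the mean. *cox7a1* and *cox5b2* are high in the tubule classes (means of 498 and 308, and of 444 and 440, in DTEC-like and PTEC-like cells), while *cox4i2* is highest in RIC-like cells (83.7).

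Few members separated DTEC-like from PTEC-like cells. Of 89 members, 3 were higher and 2 lower in DTEC-like cells, where 12.5% and 11.2% of all genes were called, and all 5 belong to complex IV. The members' median log2 fold change was −0.02 and that of all genes 0.09. With library as a block, 5 were higher and 6 lower, against 3152 and 2685 of all 17102 genes. Within libraries 1 and 2, 9 were higher and 4 lower, against 2562 and 2456 of all 16105 genes. Within libraries 3 and 4 the counts were 6 and 7, against 3105 and 2377 of 17964. Without the sub-clusters led by genes of other cells there were 3 higher and 3 lower, with a median of −0.12. When the clustering scaled genes over all libraries jointly, no cluster was named RSC-like and the PTEC-like cluster, with 633 cells, had the RSC markers as its next best, so the classes were other sets of cells. There 16 were higher and none lower, against 1765 and 2219 of all 16906 genes. Without replicate 2 the counts were 2 and 0, against 1623 and 1457 of 17737.

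*ndufa4*, which RefSeq lists as *ndufa4b*, encodes a form of the complex IV subunit that was first assigned to complex I. Of the members, it separated the tubule segments most. It had 366, 255, 721 and 680 CPM in DTEC-like cells of libraries 1 to 4, against 3.82, 3.21, 115 and 124 in PTEC-like cells. DTEC-like cells were higher in every library, and in both classes libraries 3 and 4 were higher than libraries 1 and 2. Over all 4 libraries the log2 fold change came to 3.07 (standard error 0.799, adjusted p = 0.00311). As a ratio the difference was much larger in libraries 1 and 2 than in libraries 3 and 4, so this value pools unlike pairs. *ndufa4* took 29.96% ± 12.4 of the UMIs of its family in DTEC-like cells and 4.47% ± 4.83 in PTEC-like cells. The rest came from the other genes of the family, so *ndufa4* alone does not give the level of the subunit. *ndufa4* was also present in natural killer-like (189 ± 125) and T cell-like cells (116 ± 62.8).

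*cox6a2*, whose mammalian counterpart is the muscle variant of subunit 6A, had 1764, 1581, 1756 and 1658 CPM in DTEC-like cells, against 611, 632, 570 and 528 in PTEC-like cells. Its paralog *cox6a1* ran the other way, with 532, 501, 389 and 406 in DTEC-like cells, against 589, 703, 756 and 708 in PTEC-like cells. Neither gene's values overlapped between the segments. *cox6a2* was 1.32 higher on the log2 scale (standard error 0.442, adjusted p = 0.0232) and *cox6a1* fell by 0.76 (0.232, 0.0123). *cox6a2* made up 78.7% ± 2.82 of *cox6a* UMIs in DTEC-like and 46.0% ± 3.91 in PTEC-like cells. The *cox6a2* call was lost without replicate 2 (adjusted p = 0.0722), replicate 3 (0.0803) or replicate 4 (0.0592), and the *cox6a1* call without replicate 2 (0.0723).

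*cox4i2*, the low-oxygen variant of subunit 4 in mammals, had 36.0, 44.2, 37.6 and 30.7 CPM in DTEC-like cells, against 4.46, 12.8, 4.04 and 3.43 in PTEC-like cells (log2 fold change 2.37, standard error 0.486, adjusted p = 0.000189). It was the only member lower in PTEC-like cells than in the mean of the other classes (−1.12, standard error 0.406, adjusted p = 0.0226). That call was lost without replicate 1 (adjusted p = 0.138), 3 (0.0730) or 4 (0.0951), and the direction turned, at 0.44 with no call, in the joint clustering, whose PTEC-like class is another set of cells and which had no RSC-like class. *cox4i2* was highest outside the tubule, at 83.7 ± 47.3 in RIC-like, 73.4 ± 41.9 in VEC-like and 68.3 ± 8.58 in RSC-like cells, where neighbouring means differed by less than the larger SD of the pair. *cox7a2b*, a further subunit 7A gene, had 100, 76.3, 117 and 112 CPM in DTEC-like cells, against 128, 120, 182 and 152 in PTEC-like cells. It fell by 0.68 on the log2 scale (standard error 0.198, adjusted p = 0.00826), a call lost without replicate 1 (0.0522) or 2 (0.108).

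Within the tubule classes the level varied between sub-clusters. A sub-cluster of 240 cells with *slc12a1* and *slc12a3*, the salt cotransporters of the distal segments, had 80172, 57324, 45134 and 39954 CPM of the members. A sub-cluster of 219 cells with *gata3* and little *slc12a3* had 48168, 43024, 41597 and 34326. These ranges overlapped, and the *gata3* cells were lower in each library. A further 230 cells with *slc12a3* had 53776 to 62043, were shallower (median 4542 UMIs) and gave 35.8% and 36.1% of all their UMIs to the mitochondrial protein genes in libraries 3 and 4. In 154 cells with the organic anion transporter gene *slc22a6l* the members had 42362, 46390, 49577 and 48461, and the 104 globin-led cells, 98 of which came from the PTEC-like cluster, had 28221, 28384, 22550 and 17885. The sub-clusters were defined from the same cells, so these levels are a description.

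*ndufa4* also varied among PTEC-like sub-clusters, with 1.95, 8.53, 165 and 187 CPM in the *slc22a6l* cells and 6.53, 0, 16.7 and 6.88 in a sub-cluster of 61 cells.

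Both genomes contributed to the high tubule level. In libraries 3 and 4 the 13 mitochondrial protein genes took 22.5% and 23.0% of all UMIs in DTEC-like cells and 14.9% and 16.5% in PTEC-like cells. The 94 nuclear members took 1.76% and 1.63% of all UMIs in DTEC-like cells and 2.24% and 2.09% in PTEC-like cells. As shares of all UMIs, DTEC-like cells thus had more of the mitochondrial and less of the nuclear transcripts, with 12.8 and 14.2 mitochondrial UMIs per member UMI against 6.64 and 7.89 in PTEC-like cells. Multiciliated-like cells had 9.71% and 13.6% mitochondrial protein UMIs, RIC-like cells 9.92% and 7.50%, and the other named classes between 2.25% and 6.37%. A high mitochondrial share also marks damaged cells, and their part in these values was not tested.

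**Figure D4:**
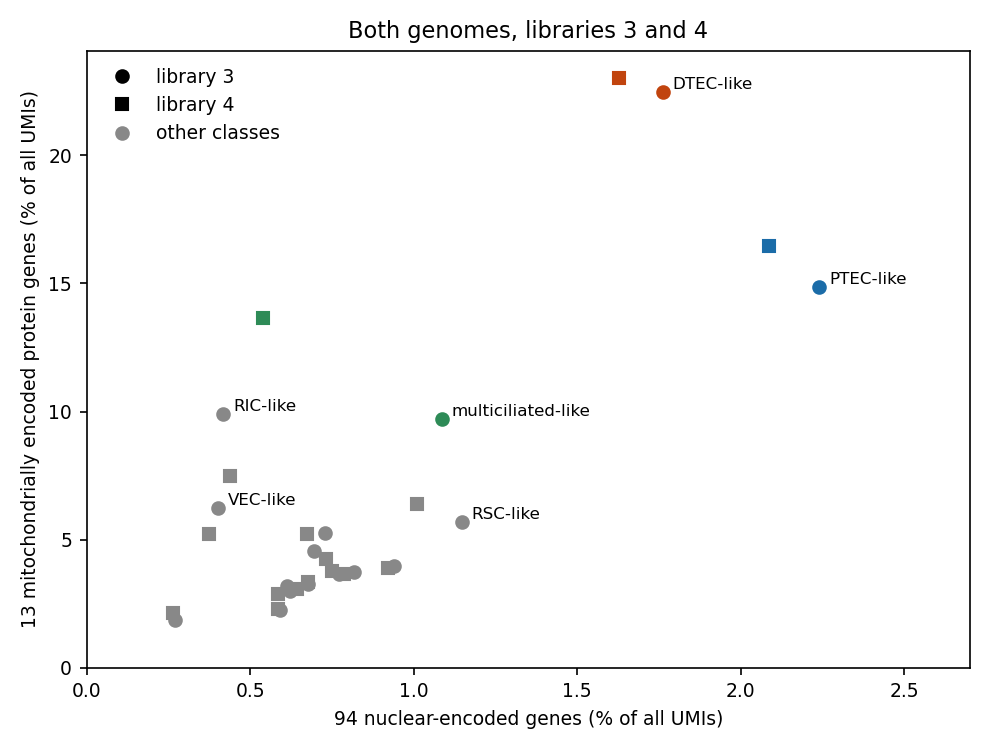
Share of all UMIs taken by the 94 nuclear members (x axis, percent) and by the 13 mitochondrially encoded protein genes (y axis, percent) in each class, with a point for library 3 and for library 4. PTEC-like cells lie farthest right (2.24% and 2.09%) and DTEC-like cells highest (22.5% and 23.0%).

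Several other mitochondrial pathways were also higher in the tubule. Over all genes tested, 27.5% were called higher and 15.7% lower in PTEC-like cells, and 27.4% and 12.9% in DTEC-like cells. Of complex II, 4 of 5 tested genes were higher in PTEC-like and in DTEC-like cells (median log2 fold change 1.82 and 1.64). *cyc1* and *cycsb*, which encode cytochrome c1 and cytochrome c, were higher in both (2.03 and 2.48 in PTEC-like, 1.85 and 2.27 in DTEC-like cells). All 18 genes of fatty acid oxidation were higher in each class (medians 1.92 and 1.60) and 16 of 17 of the tricarboxylic acid cycle (1.65 and 1.80). The list for this cycle also held genes of pyruvate dehydrogenase. Of 18 complex IV assembly genes, 16 were higher in PTEC-like (1.17) and 10 in DTEC-like cells (0.63). Glycolysis differed, with 9 of 21 higher and 4 lower in PTEC-like cells (median 0.18) and 7 higher and 3 lower in DTEC-like cells (0.38). The DTEC-like shares were near those of all genes. Of 6 genes on a list of adenine nucleotide and phosphate carriers, which also held the *vdac* channel genes, 4 were higher in each class. Of 12 genes of the hypoxia response 8 were higher in each, with 2 lower in PTEC-like cells. Of 12 regulators of mitochondrial biogenesis 4 were higher and 2 lower in PTEC-like cells (median −0.03), shares near those of all genes (27.5% and 15.7%), and 6 and 2 in DTEC-like cells (median 0.87). Genes too sparse to test were left out of these counts, namely 6 of 27 listed for glycolysis and 2 of 8 on the carrier list. For the tricarboxylic acid cycle, complex IV assembly, biogenesis and hypoxia, 1 each of 18, 19, 13 and 13 was left out. Of the 12 biogenesis regulators, 3 were higher in DTEC-like than in PTEC-like cells, where 12.5% of all genes were called higher. Among them was the coactivator gene *ppargc1a* (log2 fold change 2.37, adjusted p = 0.011), which was picked after its value had been seen.

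Multiciliated-like cells, which came from the tubule clusters, had the highest mean summed level among named classes after DTEC-like and PTEC-like cells. Their values overlapped with those of RSC-like cells. Few members were called in them against the other classes. Of 88 members tested in a fit of 14 classes, 5 were higher and 2 lower, where 19.6% and 14.1% of 15971 genes were called, so the share of members called was below the background. The members' median log2 fold change was −0.08 and that of all genes −0.20. *cox5b2* had 110, 85.8, 142 and 55.4 CPM and was 3.02 higher on the log2 scale (standard error 0.392, adjusted p = 9.66e-09). *cox4i1l* (2.05), *cox7a1* (0.92), *cox6a2* (0.84) and *ndufb2* (0.55) were also higher, and *ndufb8* (−0.56), an accessory subunit of complex I, and *atp5s* (−1.61) lower. The *cox4i1l* call was lost without replicate 3 (adjusted p = 0.651), the *cox7a1* call without replicate 3 (0.378) or 4 (0.0818), and those of *cox6a2* and *ndufb2* without replicate 1 (0.194 and 0.0906), 2 (0.198 and 0.215) or 3 (0.102 and 0.309). *cox7a1* turned to −0.09 within libraries 1 and 2.

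The count in multiciliated-like cells depended on the scaling. Without normalization factors (TMM) 40 were higher and none lower, and DESeq2 called 18 higher and none lower, while the median of all genes moved up by 0.59 and 0.32. Of all 15971 genes, 4722 were higher and 903 lower without TMM, and 3657 and 1449 with DESeq2. With library as a block 10 members were higher and 8 lower, against 3348 and 2542 of all genes. Within libraries 1 and 2 the counts were 6 and 4, against 2597 and 1305 of 14941. Within libraries 3 and 4 they were 7 and 14, against 2825 and 2169 of 17462. Without replicate 2 the counts were 3 and 1 (2834 and 2058 of 16918), and without replicate 3 they were 1 and 3 (2611 and 1774 of 15873). Of the glycolysis genes 11 of 20 were lower and none was higher.

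In erythroid-like cells the sign of the difference depended on what the level was set against. Red cells of fish keep a nucleus and mitochondria, and globin mRNAs fill much of their transcriptome. Globin genes took 26.8% of the nuclear UMIs of erythroid-like cells and at most 1.19% in the other named classes. In CPM, the members had 9422, 8725, 7744 and 7797 in erythroid-like cells, 0.849 ± 0.0345 times the median of the other classes. With globin and ribosomal protein genes left out of the total they took 1.503% ± 0.220 of the UMIs and the ratio turned to 1.285. This share was near that of natural killer-like cells (1.38% ± 0.00803) and below those of RSC-like (1.84% ± 0.241) and multiciliated-like cells (1.85% ± 0.472).

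With TMM factors 38 of 89 members were higher and 2 lower in erythroid-like cells, where 25.3% and 20.6% of all genes were called. Without the factors 3 were higher and 51 lower, and with DESeq2 15 and 11, as the median of all genes moved by −0.89 and −0.40. Of all 17102 genes, 1413 were higher and 6952 lower without the factors, and 3508 and 6367 with DESeq2. Relative to the median of all genes the members stood 0.62 higher with TMM, 0.57 without and 0.73 with DESeq2. The fit with a library block gave 63 higher and 5 lower, against 5176 and 4531 of all genes. Within libraries 1 and 2 it was 44 and 6, against 4193 and 3324 of 16105. Within libraries 3 and 4 it was 65 and 4, against 5541 and 3486 of 17964. Without replicate 3 the number higher fell to 14, against 3164 of all 16636 genes. Without replicate 4 it fell to 17, against 3394 of 17343.

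The members called higher in erythroid-like cells without TMM factors were *cox5b2* (2.61), *atp5s* (1.098) and *cox6a2* (0.92). *atp5s* had 31.8, 31.5, 21.6 and 20.8 CPM in erythroid-like cells, against 12.1 ± 0.464 in neutrophil-like cells, and its log2 fold change with TMM was 2.06 (standard error 0.182, adjusted p = 3.36e-13). *cox5b2* (3.56), *cox6a2* (1.86), *cox7a1* (1.23) and *cox8b* (1.09) were also higher with TMM. *cox8a* (−0.66), the paralog of *cox8b*, and *ndufaf5* (−0.69) were lower. *atp5g1* and *atp5g3b*, which encode the c ring of ATP synthase, were 0.56 and 0.84 higher with TMM, and turned to −0.38 and −0.09 without it. Their calls were lost without replicate 3 (adjusted p = 0.128 and 0.122) or 4 (0.0740 and 0.0679), and that of *atp5g3b* without replicate 1 (0.116), while the *cox8b* call was lost without replicate 3 (0.0968) or 4 (0.0938) and the *ndufaf5* call without replicate 1 (0.0753). Of 21 glycolysis genes 18 were lower with TMM and 1 was higher.

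The erythroid-like class split into 1099 proliferating cells, whose cluster carried cell cycle genes, and 1423 other cells. The members had 12817, 12383, 9416 and 9108 CPM in proliferating cells, against 4999, 4886, 3044 and 2992 in the other erythroid-like cells. The groups did not overlap. The other cells came from 1 cluster in libraries 1 and 2, while 303 of 333 and 242 of 262 of them in libraries 3 and 4 came from a further cluster with no cells in libraries 1 and 2. In libraries 3 and 4 the cluster that all libraries share had 4623 and 4418 CPM (30 and 20 cells). Globin took 18.4% of the UMIs in the proliferating and 41.0% in the other cells, and without globin and ribosomal protein genes the members took 1.84% ± 0.354 and 0.792% ± 0.279. A cell held 174 ± 16.5 member UMIs in the proliferating and 23.5 ± 1.52 in the other group. These counts per cell are not corrected for depth. The median cell had 17340 UMIs in the proliferating cluster and 4788 and 8789 in the clusters of the other cells.

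Of 85 members tested within erythroid-like cells, 31 were higher and 2 lower in the proliferating cells, where 26% and 18.2% of 8722 genes were called. The members' median log2 fold change was 0.57 (0.27 within libraries 1 and 2 and 1.04 within libraries 3 and 4) and that of all genes −0.02. Without TMM factors 71 were higher and 1 lower, as the median of all genes moved by 0.76, and DESeq2 gave 31 and 2. Of all genes, 4026 were higher and 537 lower without the factors, and 2321 and 1918 with DESeq2. In the fit with a library block 58 members were higher and 4 lower, against 2882 and 2496 of all genes. Within libraries 1 and 2 the counts were 34 and 6, against 2659 and 2336 of 8271. Within libraries 3 and 4 they were 72 and 4, against 3407 and 2719 of 11546. Without replicate 4 there were 18 members higher, against 1866 of all 8471 genes.

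*ndufaf4*, an assembly factor of complex I, had the largest fold change among the members, at low levels (2.56, standard error 0.656, adjusted p = 0.0113, mean 10.0 CPM in proliferating and 1.01 CPM in other cells). Genes of the c ring came next. *atp5g1* had 383, 338, 327 and 310 CPM in proliferating erythroid-like cells, against 46.0, 50.1, 26.2 and 43.1 in the others (log2 fold change 2.27, standard error 0.237, adjusted p = 8.86e-05). *atp5g3a* had 147, 150, 78.6 and 76.9, against 19.8, 14.4, 10.5 and 12.5 (2.204, 0.331, 0.000686). *cox6a1* had 194, 200, 237 and 242, against 38.0, 29.8, 25.1 and 36.6 (1.99, 0.207, 8.65e-05). *atp5g1*, *atp5g3a* and *cox6a1* did not overlap between the groups.

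*cox6a2*, by contrast, was similar in CPM, with 298, 247, 321 and 288 in proliferating cells and 302, 282.5, 297 and 283 in the others. It was 0.78 lower with TMM (standard error 0.149, adjusted p = 0.00261) and at −0.01 without it. Its share of *cox6a* UMIs, which does not depend on the scaling, was 56.9% ± 2.78 in the proliferating and 90.0% ± 1.69 in the other cells and did not overlap. *cox4i2* was also lower in proliferating cells (−1.49, standard error 0.221, adjusted p = 0.00064).

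**Figure D5:**
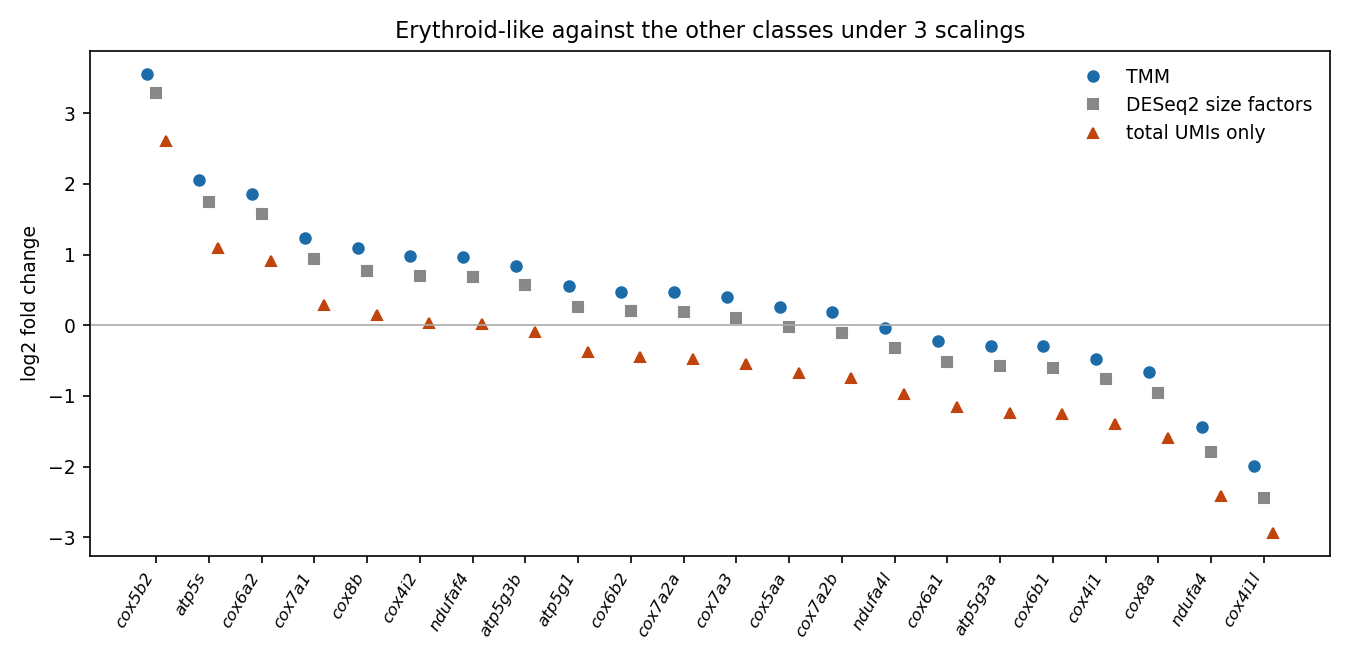
Log2 fold change of named members in erythroid-like cells against the 12 other classes with TMM factors (circles), DESeq2 size factors (squares) and total UMIs only (triangles). *cox5b2* is higher under all 3 (3.56 with TMM, 2.61 with total UMIs), while *atp5g1* is at 0.56 with TMM and at −0.38 with total UMIs.

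Neutrophils are known to rely on glycolysis, and their summed level of the members, given above, was close to those of the other blood cells. The test set them against the mean of the 12 other classes, which are not all blood cells. In neutrophil-like cells 7 of 89 members were higher and 7 lower, where 20.4% and 11.9% of all genes were called (32.3% in either direction). The median log2 fold change was 0.01 for the members and −0.06 for all genes. Of 21 glycolysis genes 18 were higher and 1 lower (median 1.84). Without TMM factors 2 members were higher and 34 lower, and with DESeq2 4 and 27, as the median of all genes moved by −0.39 and −0.28. Of all 17102 genes, 2163 were higher and 3492 lower without the factors, and 2996 and 5501 with DESeq2. With library as a block 11 members were higher and 13 lower, against 4628 and 3136 of all genes. Within libraries 1 and 2 the counts were 14 and 13, against 5041 and 1863 of 16105. Within libraries 3 and 4 they were 15 and 5, against 4909 and 2098 of 17964. Without replicate 1 or without replicate 2 the counts were 5 and 2 (3002 and 1485 of 17125 genes, and 3043 and 1418 of 17737).

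Complex IV took 38.4% ± 0.825 of the members' UMIs in neutrophil-like cells, against 34.8% ± 0.447 in macrophage-like and 27.4% ± 1.69 in proliferating erythroid-like cells. T cell-like cells had 35.6% ± 0.985, KMSC-like cells 35.4% ± 4.03 and natural killer-like cells 35.1% ± 0.777. KMSC-like cells overlapped with neutrophil-like cells, with 38.0% and 39.6% in libraries 3 and 4. *cox6a2* was prominent, with 373, 337, 487 and 476 CPM in neutrophil-like cells (log2 fold change 1.89 against the other classes, standard error 0.267, adjusted p = 1.05e-07). *ndufa4* (1.63), *ndufaf1* (1.07), *ndufs8a* (0.93), a core iron-sulfur subunit of complex I, *cox8a* (0.73), *cox5aa* (0.71) and *cox7a3* (0.56) were the other members called higher. Of these, *ndufa4* had 18.3, 21.2, 149 and 139 CPM. Among the members called lower were *cox4i2* (−1.66), *cox5b2* (−1.15), *ndufaf2* (−0.85), *ndufa12* (−0.61) and *ndufab1a* (−0.57).

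Several of these neutrophil calls were lost when 1 library was left out. Those of *cox5aa*, *cox7a3* and *cox5b2* were lost without any 1 replicate, with adjusted p between 0.0736 and 0.101, between 0.102 and 0.168 and between 0.0534 and 0.0676. The *ndufa12* and *ndufab1a* calls were lost without replicate 1 (adjusted p = 0.0916 and 0.189) or 2 (0.0900 and 0.176). The *ndufaf2* call was lost without replicate 1 (0.135), 2 (0.102) or 4 (0.128), and the *ndufa4* call without replicate 4 (0.0856). Without TMM factors the calls of *ndufaf1* (adjusted p = 0.109), *cox8a* (0.0564), *ndufa4* (0.0552), *cox5aa* (0.402) and *cox7a3* (0.791) were lost. With DESeq2 those of *ndufa4* (0.0744), *cox5aa* (0.1) and *cox7a3* (0.144) were lost.

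Macrophage-like cells had 3 members higher and 7 lower than neutrophil-like cells, where 15.6% and 11.5% of all genes were called. The members' median was −0.16 and that of all genes 0.03. *cox6a2* had 115, 113, 184 and 177 CPM in macrophage-like cells, against 373, 337, 487 and 476 in neutrophil-like cells, with no overlap (log2 fold change −1.78, standard error 0.447, adjusted p = 0.00159). Its share of *cox6a* was 29.0% ± 4.01 against 57.6% ± 1.73. *cox4i2* ran the other way, with 42.2, 35.4, 13.9 and 19.5 in macrophage-like cells, against 2.74, 2.65, 4.75 and 4.42 in neutrophil-like cells (2.76, 0.435, 1.46e-06). *cox7a2b* (0.82) was higher as well, and *ndufa4* (−2.01), *ndufaf1* (−1.37), *cox6b1* (−0.77), *ndufs8a* (−0.70) and *cox8a* (−0.70) were among those lower. The *ndufa4* and *ndufaf1* calls were lost without any 1 replicate, with adjusted p between 0.0538 and 0.216 and between 0.0513 and 0.117, the *ndufs8a* call without replicate 1 (0.105) and the *cox8a* call without replicate 2 (0.0849). Without TMM factors the calls of *ndufa4* (adjusted p = 0.115), *cox6b1* (0.152), *ndufs8a* (0.161) and *cox8a* (0.0744) were lost, and with DESeq2 that of *ndufa4* (0.113).

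These macrophage counts moved with the setting. Without TMM factors 7 members were higher and 2 lower, and with DESeq2 8 and 6, as the median of all genes moved by 0.26 and 0.16. Of all 17102 genes, 3107 were higher and 1297 lower without the factors, and 3440 and 2124 with DESeq2. With library as a block 6 members were higher and 16 lower, against 3655 and 3158 of all genes. Within libraries 1 and 2 the counts were 6 and 29, against 3210 and 3587 of 16105. Within libraries 3 and 4 they were 5 and 21, against 3527 and 3343 of 17964. Without replicate 1 or replicate 2 there were 2 higher and 3 lower, and without replicate 3, 2 and 4. Of 21 glycolysis genes 15 were lower and 1 higher than in neutrophil-like cells.

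The 5 members that were too sparse to test were *cox5b1* (46 UMIs over all libraries), *ndufa4l2* (53), *ndufa4l2a* (16), *ndufa9b* (17) and *ndufs8b* (23). By its symbol each is related to a member that was tested. RefSeq lists *ndufa9b* as a pseudogene, and *ndufa4l2* had no match in RefSeq.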

How the data were processed

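Cells of 4 kidney libraries were measured by single-cell RNA sequencing. For every library the authors deposited a matrix of UMI counts (genes by cells), which are whole numbers with no normalization. The submitters' processing notes name UMI-tools, Seurat 4.2 and GRCz11, and the aligner is not given in the sources used here. Symbols are those of the matrices. Of the 94 members 93 matched a RefSeq entry of zebrafish, 20 of them under another symbol. The symbol rule for the members used no measured value, but members, lists and tests were chosen with earlier results of these data known.

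All 31008 cells were used. Seurat 5.3.0 (R 4.3.3) log-normalized the counts, genes were scaled within each library, and clusters were formed from 2000 variable genes, 30 principal components and a resolution of 0.6. Members and mitochondrially encoded genes were kept out of the variable genes. Names came from marker scores, the mean log2 ratio of a class's markers between a cluster and all remaining cells (pseudocount of 10 CPM). The best score had to reach 1 and rest on 3 or more detected markers, and among the 10 leading genes no rival class could have more markers. Tubule cells were clustered again with 15 components. These sub-clusters were scored against the other tubule cells only. The multiciliated-like name needed multiciliated markers to score best and to reach 1, with no check of detected markers or leading genes. Doublets were not removed, since Scrublet (scanpy 1.11.5) called at most 0.0634% of a library's cells and thus did not work. An alternative left out the 6% of cells with the highest scores, and its main fit held 12 named classes in place of 13.

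Counts were summed per library and class (at least 10 cells) without mitochondrially encoded genes and compared with edgeR 4.0.16 (TMM, filterByExpr, quasi-likelihood test, Benjamini-Hochberg over all genes tested), with the 13 named classes in 1 fit, the multiciliated-like class added in another, and the erythroid-like groups in a fit of their own. The test was checked on simulated counts, drawn independently for each sum. That check does not cover sums that vary together within a library. Every sum of a library shares its cells' preparation, so libraries pair the sums. Over 312 pairs of classes within a library the deviations from class means were correlated at 0.174 to 0.707 (median 0.385). Over 936 pairs of classes from different libraries the correlations ran from −0.702 to 0.700 (median −0.311). The fit with library as a block, DESeq2 1.42.0, other scalings, filters and clusterings, and each library left out were alternatives. Shares of cells have exact Clopper-Pearson 95% intervals. Named members were the 5 with the largest change in each direction among those past an adjusted p of 0.05 with the same direction in every library, and in addition all *cox4i*, *cox6a*, *cox6b*, *cox7a*, *cox8*, *ndufa4* and *atp5g* genes. Genes that did not pass the filter were left out of the counts. The values of 1 member are not reported here by name.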

Additional observations from a re-analysis of the deposited data

Results flagged for a closer look

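The summed level of the complex IV genes in erythroid-like cells was 2508 UMIs per 1000000 nuclear UMIs (CPM) in library 1, against 2268 to 2299 in the other 3 libraries. This gap was 0.872 of the range of the 4 libraries, above Dixon's critical value for 4 samples. It was the only 1 of 160 groups of 4 libraries to stand out in this way, where chance gives about 1 in 20.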

How the results depend on the processing

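The counts of members called higher in PTEC-like and DTEC-like cells kept their direction and stayed within 1.5 times the reported count under every alternative tried (82 to 88 in all, leaving out 1 library 83 to 85 and 82 to 86). With library as a block, the number called was 11 for DTEC-like against PTEC-like cells, 18 for multiciliated-like, 63 higher for erythroid-like, 58 higher for proliferating erythroid-like, 24 for neutrophil-like and 22 for macrophage-like against neutrophil-like cells. Without TMM factors it was 40 for multiciliated-like, 3 higher for erythroid-like, where the members' median turned to −0.52, 71 higher for proliferating erythroid-like and 36 for neutrophil-like cells. DESeq2 called 10 for DTEC-like against PTEC-like, 18 for multiciliated-like, 15 higher for erythroid-like and 31 for neutrophil-like cells. Within libraries 1 and 2 the number was 13 for DTEC-like against PTEC-like, 27 for neutrophil-like and 35 for macrophage-like against neutrophil-like cells, and within libraries 3 and 4 it was 13, 21 for multiciliated-like, 65 higher for erythroid-like, 72 higher for proliferating erythroid-like and 26 for macrophage-like against neutrophil-like cells. The number of all genes called also moved with these settings, and stands beside most of the member counts above. Scaling over all libraries together, which left no RSC-like class, gave 16 members for DTEC-like against PTEC-like. A resolution of 1.0 gave 23 for neutrophil-like cells, where 3190 of 15707 genes were higher and 2420 lower. Leaving out the 6% of cells with the highest Scrublet scores gave 21 higher for erythroid-like cells, in a fit of 12 classes in place of 13. There 3580 of 16608 genes were higher. Leaving out 1 library gave 2 to 4 for DTEC-like against PTEC-like, 4 to 9 for multiciliated-like, 14 to 32 higher for erythroid-like, 18 to 26 higher for proliferating erythroid-like, 7 to 11 for neutrophil-like and 5 to 7 for macrophage-like against neutrophil-like cells.

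The summed level relative to the median of the other classes was 3.216 in PTEC-like cells with mitochondrially encoded genes in the total, 4.848 per cell and 3.339 with scaling over all libraries together. In DTEC-like cells it was 3.149 with mitochondrially encoded genes, 3.965 without globin and ribosomal protein genes, 3.589 per cell and 4.946 without the highest Scrublet scores. In erythroid-like cells it turned to 1.285 without globin and ribosomal protein genes and to 1.269 per cell, and was 0.9198 with mitochondrially encoded genes, 0.9728 with scaling over all libraries together, 0.9437 at a resolution of 1.0 and 0.9194 without the highest Scrublet scores. Of 88 results for named members, 52 kept direction and call in every alternative, and 4 turned in 1 alternative each: *cox4i2* in PTEC-like cells to 0.4399 with scaling over all libraries together, *atp5g1* and *atp5g3b* in erythroid-like cells to −0.3841 and −0.09242 without TMM factors, and *cox7a1* in multiciliated-like cells to −0.09218 within libraries 1 and 2. The causes were not tested. Sums of multiciliated-like cells with at least 30 cells could not be fitted. Depth limits members with few UMIs, such as the assembly factors, and classes with few cells.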
